A study of Mus musculus with 2 samples.

Results

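The 10 genes described here are regulators and receptors of the earliest T cell precursors in the thymus: the transcription factor genes Spi1, Bcl11a, Lyl1, Hhex, Tal1 and Mef2c, the cofactor gene Lmo2, and the receptor genes Kit, Flt3 and Cd44. They were chosen by name, as 10 of 21853 protein-coding genes, for their known place in early thymic progenitors and not for a value measured here. Earlier results of these data were known when the choice was made. DNase-seq, which maps open chromatin by where DNase I cuts DNA, was made on whole thymus of newborn mice of strain B6NCrl (postnatal day 0, sexes pooled). The series held 1 group of 2 biological replicates, which carry the same donor label and different biosample labels, so their spread may be partly technical. All mice were labelled healthy, with no treatment or engineered allele named. With 1 group there was no contrast between conditions, and all values below are descriptions without a p-value.

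Blood-borne progenitors enter the thymus carrying KIT and FLT3, receptor tyrosine kinases for stem cell factor and FLT3 ligand, and CD44, an adhesion receptor for hyaluronan. Their regulators are known from stem and progenitor cells: PU.1 (from Spi1) and MEF2C also act in myeloid and B cells, BCL11A in B and dendritic cells, and LYL1 and TAL1 are basic helix-loop-helix factors that work with LMO2. During T lineage commitment most of these regulators are turned off while factors such as TCF1, GATA3 and BCL11B take over. Early progenitors are a small minority of thymus cells. In whole tissue, fewer cells with an open site and weaker opening in each cell cannot be told apart, and several of these genes are also used by myeloid, mast, dendritic or endothelial cells.

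A promoter peak was a deposited peak of 150 bp whose midpoint lay no more than 1000 bp from the transcription start site of a coding transcript. A distal peak was any other peak whose nearest coding start site, within 100 kb, belonged to the gene. A shared peak had at least 1 bp in common with a peak in the other replicate. Each peak has a deposited score, a whole number from 1 to 150 whose meaning the sources used here do not state. The score was read within its own list, also as a percentile rank. Replicate 1 had 154791 distinct peaks and replicate 2 had 139663. Read totals are unknown, so no value could be scaled by depth.

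The sequences below are 6 of the sites on which the results turn. They are the sole Spi1 promoter peak found in both replicates, and the strongest distal shared peaks of Bcl11a, Lmo2, Hhex, Flt3 and Cd44, all free of annotated exons. Here and below, the strongest shared peak of a gene is the one whose lower percentile rank of the 2 replicates is highest. By replicate 1 alone other sites led at Lmo2, with a score of 79 against 72, and at Hhex, with 68 against 66. Each is the plus strand of GRCm38 (mm10) from the RefSeq assembly, over the peak of replicate 1. Capitals mark matches, on either strand, to 9 short motifs: GAGGAA for PU.1-type ETS factors, CCGGAA for other ETS factors, TGTGGT for RUNX, AGATAA for GATA factors, CTTTGA for TCF and LEF factors, and TGANTCA for AP-1. The remaining motifs are E-boxes, bound by basic helix-loop-helix and related factors, written CAGCTG in one form, CACCTG in another form and CAGATG in the last form. A match is a description of the letters and not a measured binding site.
Spi1 promoter peak, chr2:91083036-91083185: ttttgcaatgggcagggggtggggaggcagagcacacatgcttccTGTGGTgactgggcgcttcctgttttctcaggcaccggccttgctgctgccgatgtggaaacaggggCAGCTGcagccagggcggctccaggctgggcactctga
Bcl11a distal peak, chr11:24131976-24132125: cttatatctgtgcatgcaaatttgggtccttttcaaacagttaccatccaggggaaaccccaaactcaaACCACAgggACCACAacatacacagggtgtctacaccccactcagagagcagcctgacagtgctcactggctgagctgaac
Lmo2 distal peak, chr2:103945576-103945725: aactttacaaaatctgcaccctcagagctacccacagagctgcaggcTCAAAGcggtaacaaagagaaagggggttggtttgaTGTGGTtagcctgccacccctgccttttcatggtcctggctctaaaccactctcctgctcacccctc
Hhex distal peak, chr19:37419756-37419905: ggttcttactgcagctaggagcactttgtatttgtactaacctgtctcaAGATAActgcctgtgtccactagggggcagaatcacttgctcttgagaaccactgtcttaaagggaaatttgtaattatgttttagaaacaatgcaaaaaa
Flt3 distal peak, chr5:147366536-147366685: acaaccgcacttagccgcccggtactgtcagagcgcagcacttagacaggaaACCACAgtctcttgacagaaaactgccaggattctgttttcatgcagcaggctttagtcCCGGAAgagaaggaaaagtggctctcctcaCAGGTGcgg
Cd44 distal peak, chr2:102867496-102867645: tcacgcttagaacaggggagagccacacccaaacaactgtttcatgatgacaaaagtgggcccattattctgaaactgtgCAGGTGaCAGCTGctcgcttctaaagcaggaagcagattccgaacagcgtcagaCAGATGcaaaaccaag
The Flt3 site held an ETS, a RUNX and an E-box match. The Cd44 site held all 3 E-boxes, and Lmo2 held a RUNX and a TCF/LEF match. The Bcl11a site held the RUNX letters at 2 places, and the Hhex site held the GATA letters. Among sites not printed, the strongest distal shared peaks of Spi1, Mef2c and Kit held none of the 9 motifs. Nor did the strongest Kit promoter peak.

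A promoter peak was present in both replicates at all 10 genes, against 62.2% of all protein-coding genes. All 10 also had at least 1 distal shared peak, against 65.0% of all genes, and 9 of 10 had 3 or more, against 36.8%. Together they had 63 distal shared peaks, with a median of 5.0 per gene, where the median over all genes was 1.0. Their territories, the stretches of genome nearer to their start sites than to any other within 100 kb, were also longer, with a median of 96.0 kb against 46.4 kb for all genes. Per 100 kb of territory the median was 6.58 distal shared peaks for the 10 genes and 2.80 for all genes. With the stronger 50% of each list alone, Lmo2, Tal1 and Flt3 had no promoter peak in both replicates and the sum was 33. With start sites of all biotypes, which adds non-coding genes and non-coding transcripts of coding genes, the sum was 37 and Hhex had no distal shared peak.

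**Figure D1:**
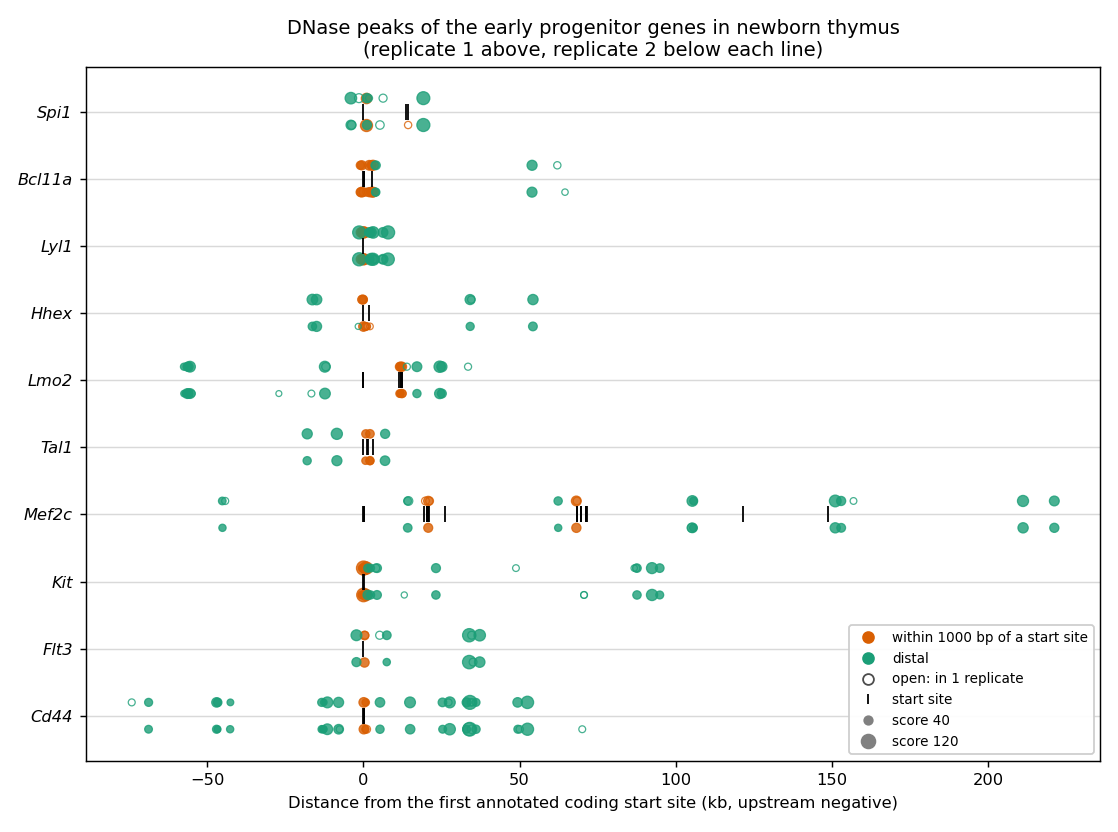
Peaks of the 10 genes by distance from the most upstream annotated coding start site (kb, upstream negative). Replicate 1 lies above and replicate 2 below each line, larger circles have higher scores, and open circles are peaks of 1 replicate alone. Cd44 has the most distal peaks, Lyl1 has its peaks crowded within 8 kb, and the strong distal sites of Flt3 and Cd44 lie over 33 kb into the gene.

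The promoter peaks of these genes had low scores, while their distal peaks had scores like those of all distal peaks. The strongest promoter peak of each gene had a median score of 55.5 in replicate 1 and 52.5 in replicate 2. Over the 13601 coding genes with a promoter peak in both replicates, these medians were 114 and 121. In replicate 1, 9 of the 10 genes were below that median, and in replicate 2 all 10 were. Hotspots, the wider enriched regions that accompany the peaks, carry a −log10 of a q-value that is capped at 100. Of the promoter peaks of the 10 genes, 40.6% in replicate 1 and 40.5% in replicate 2 lay in a hotspot at the cap, against 70.3% and 74.1% of all promoter peaks. Distal peaks of the 10 genes had median scores of 45 and 39 in replicates 1 and 2, close to 44 and 38 for all distal peaks.

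**Figure D2:**
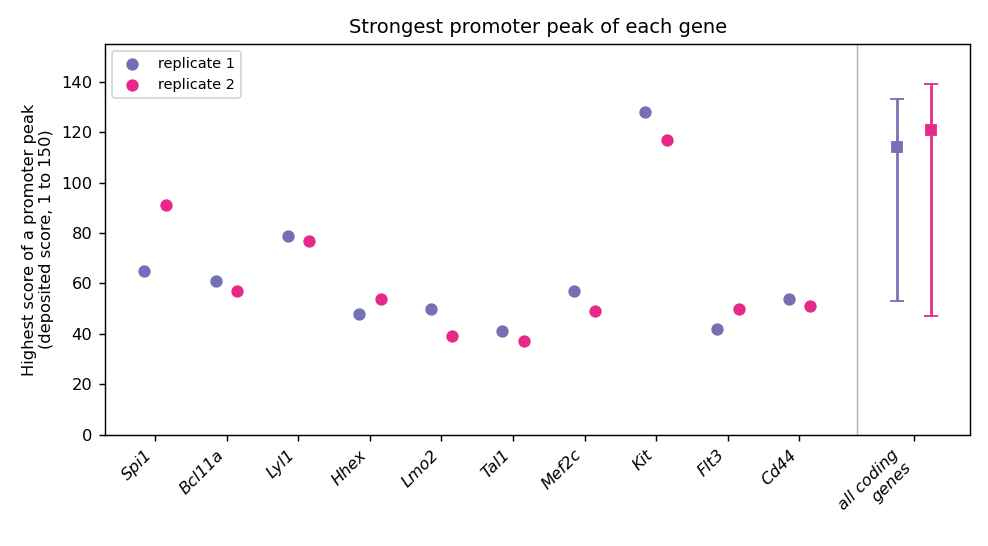
Highest score of a promoter peak at each of the 10 genes in replicate 1 and replicate 2 (deposited score, 1 to 150). At the right, squares are the median over all coding genes with a promoter peak in both replicates, and bars run from the 10th to the 90th percentile. Kit, at 128 and 117, stands above the other 9 genes in both replicates, and Tal1 is the lowest at 41 and 37.

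Kit was the exception among the promoters of the 10 genes. Its peak over the start site (chr5:75574896-75575045) scored 128 in replicate 1 and 117 in replicate 2, at percentile ranks 97.9 and 93.3 of all peaks. Among the best promoter peaks of all coding genes that had one, these scores stood at percentiles 77.0 and 46.5. Another shared peak in the intron that follows scored 98 and 81. Away from the promoter, Kit had 7 distal shared peaks, and 4 of them lay inside the gene. A limit of 50 kb left 4 of them, and taking only the stronger 50% of peaks left 1. Its strongest distal site (chr5:75667216-75667365) lay 92.3 kb downstream of the nearest start site, beyond the end of the gene, with scores of 74 and 77. Peaks at 87.5 kb, with scores of 40 and 39, and at 94.8 kb, with scores of 42 and 34, stood on either side of it. The strongest Kit distal peak therefore ranked far below the Kit promoter in both replicates.

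Flt3 showed the reverse order of strength. Its promoter peak lay 198 bp downstream of the start site and scored 42 in replicate 1 and 50 in replicate 2, percentile ranks 43.7 and 59.5. The intronic site printed above, 33.9 kb into the gene, scored 112 and 114, percentile ranks 93.6 and 92.6. Another site at 37.2 kb scored 81 and 66, and a site 2.22 kb upstream of the start scored 71 and 47. Flt3 had 4 distal shared peaks in all, at 7.43 per 100 kb of territory.

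Cd44 had the most distal sites of the 10 genes, with 21 distal peaks in replicate 1, 24 in replicate 2 and 17 shared, at percentile 97.2 of all coding genes for this count. With the stronger 50% of peaks Cd44 had 6, with Mef2c, Lmo2 and Lyl1 at 5, and with start sites of all biotypes it had 8, with Mef2c and Kit at 7. Of the 17, 9 lay inside the gene and 8 in the intergenic DNA upstream of it, out to 68.7 kb. The strongest, the printed site 33.8 kb from its nearest start site, scored 124 in replicate 1 and 119 in replicate 2. Replicate 2 had a further peak beside it (chr2:102867776-102867925) with a score of 101 that overlapped no peak of replicate 1, although a hotspot at the cap covered it in both replicates. This was the highest score of any peak of the 10 genes found in 1 replicate alone. A site 52.2 kb into the gene scored 95 and 92. The Cd44 promoter peaks were lower, with a best score of 54 and 51.

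Spi1 encodes PU.1, and its openness depended on which start site is meant. The Spi1 start that belongs to the GENCODE basic set had no peak within 1000 bp in replicate 1 and a peak of score 27 in replicate 2. The promoter peak found in both replicates (chr2:91083036-91083185, printed above) lay 721 bp downstream of the most upstream start, that of a transcript outside the basic set which begins 13706 bp before the basic one. This peak scored 65 in replicate 1 and 91 in replicate 2 and lay in a hotspot at the cap in both. The strongest Spi1 site was intronic (chr2:91101516-91101665), 4.81 kb downstream of its nearest start, and scored 105 and 107, with none of the 9 motifs. The other distal shared peaks were 4.0 kb upstream of the upstream start, with scores of 82 and 55, and 1.18 kb downstream of it, with scores of 51 and 48. Spi1 is known to be controlled by an upstream element in blood cells, and whether any of these peaks is that element was not tested.

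Bcl11a, which encodes a zinc finger repressor, had many low-scoring promoter peaks and few distal ones. It had 5 promoter peaks in replicate 1, scoring 37 to 61, and 8 in replicate 2, scoring 32 to 57. All 4 of its annotated start sites had a peak within 1000 bp in both replicates, and the most downstream start was covered by a peak in both, with scores of 48 and 57. Of its 2 distal shared peaks, the stronger was the printed intronic site 51.4 kb from its nearest start, with scores of 60 and 59. Its density of 1.92 distal shared peaks per 100 kb was the lowest of the 10 genes and below the median of 2.80 over all genes. A stronger peak 1.58 kb upstream of the most upstream Bcl11a start (chr11:24076396-24076545) scored 112 and 113, but the nearest coding start site is that of A830031A19Rik, so it is not counted for Bcl11a.

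Lyl1 and Tal1, which encode related basic helix-loop-helix factors, differed in their start sites. A peak covered the Lyl1 start in both replicates, with scores of 79 and 77. Lyl1 had 6 distal shared peaks in a territory of 12.3 kb, 48.8 per 100 kb, at percentile 99.8 of all genes. With start sites of all biotypes, 2 distal shared peaks were assigned to it. The strongest were 1.35 kb upstream of the start (chr8:84700036-84700185), with scores of 107 and 109, and 7.91 kb downstream of it, with scores of 108 and 99. All 6 midpoints lie within Nfix, which overlaps Lyl1, and peaks carry no strand that could separate the genes. At Tal1 the promoter peaks scored 37 and 41 in replicate 1, and 29 to 37 in replicate 2, and no peak covered any of its 4 start sites in both replicates. Its strongest distal shared peak (chr4:115047856-115048005) lay 8.49 kb upstream in intergenic DNA and scored 76 and 60. The others lay 18.0 kb upstream of the most upstream start, in an exon of Stil, with scores of 61 and 37, and 6.96 kb downstream of that start in an exon of Tal1, with scores of 48 and 53.

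Lmo2, which encodes the bridging LIM protein of the TAL1 and LYL1 complexes, had promoter peaks near its downstream starts alone. No peak lay within 1000 bp of the upstream starts in either replicate. Peaks lay within 1000 bp of the starts between 11542 and 12258 bp further on, with best scores of 50 in replicate 1 and 39 in replicate 2. No Lmo2 start was covered by a peak in both replicates. Its 8 distal shared peaks formed groups. A set of 4 lay between 55.5 and 57.4 kb upstream of the most upstream start, with scores from 26 to 70 in replicate 1 and from 21 to 57 in replicate 2. The printed site at 12.3 kb upstream scored 72 and 69. Sites at 12.2 and 12.9 kb from the nearest downstream start scored 79 and 62, and 61 and 46, inside the overlapping gene 4931422A03Rik.

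Mef2c and Hhex, which encode a MADS box factor and a homeobox factor, also had low-scoring promoter peaks. Mef2c has 23 annotated start sites over a long gene, of which 10 had a peak within 1000 bp in both replicates. None of its 3 most upstream starts did. The shared peak at the starts near 20.8 kb scored 50 and 46, and the one just before the start at 68314 bp scored 57 and 49. Its 9 distal shared peaks were spread over a territory of 349 kb, 2.58 per 100 kb, below the median over all genes. The strongest by the lower of its ranks (chr13:83715096-83715245) scored 75 and 63 and lay 62.3 kb from the nearest start, beyond the end of the gene. An intronic site 2.18 kb downstream of the most downstream start scored 85 and 62, and led in replicate 1. Hhex had a best promoter peak 219 bp upstream of its start, with scores of 48 and 54, and 6 further promoter peaks in replicate 2 alone had scores of 19 to 31. Its 4 distal shared peaks lay at 15.0 and 16.3 kb upstream within Kif11, and at 32.2 and 52.4 kb downstream of the nearest start. They scored 60 to 68 in replicate 1 and 36 to 60 in replicate 2.

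The replicates ranked the shared sites in a similar order. Of the peaks of the 10 genes, 73.1% of 119 in replicate 1 and 71.2% of 125 in replicate 2 were shared, against 67.3% and 74.8% of all peaks. Over the 87 shared peaks of replicate 1, the percentile ranks in the replicates differed by a median of 6.80 points and at most by 27.4. Peaks of 1 replicate alone were weaker, with a median score of 30 for 32 peaks in replicate 1 and 27.5 for 36 peaks in replicate 2. Of these, 11 and 7 still lay in a hotspot of the other replicate.

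**Figure D3:**
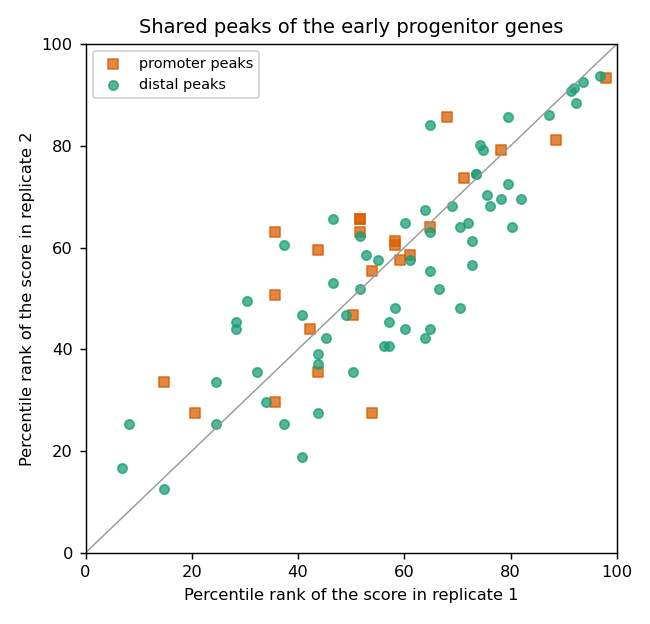
Percentile rank of the score in replicate 1 (x axis) and in replicate 2 (y axis) for the 87 shared peaks of the 10 genes, with the line of equal rank. Squares are promoter peaks and circles are distal peaks. The points follow the line with gaps of up to 27.4 points. Among those at the upper right are the strongest Kit promoter peak and the strongest distal sites of Flt3, Cd44, Spi1 and Lyl1.

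Distal sites of these genes had a median distance like that of all genes and a higher share in exons. Exons held 15.9% of the 63, introns 49.2% and intergenic DNA 34.9%, where all 68868 distal shared peaks had 9.41%, 53.8% and 36.7%. Of the 10 peaks in exons, 4 were at Lyl1, where all midpoints lie within Nfix. The median distance to the nearest coding start was 15.0 kb for the 10 genes and 15.8 kb for all genes. Over 50 kb from it lay 20.6% of the 63 and 15.2% of all. Nearest-gene assignment does not show which gene a site controls. Within 50 kb of the most upstream start, a further 14 distal shared peaks at Flt3, 13 at Lyl1, 10 at Spi1, 3 at Tal1, 2 at Lmo2 and 2 at Bcl11a were nearer to a neighbour's start and are not counted. At Flt3 these included a site 26.1 kb upstream, given to Pan3, with scores of 117 and 108. At Tal1 they included sites 19.3, 29.3 and 45.4 kb downstream, given to Pdzk1ip1, with scores of 70 and 51, 64 and 61, and 71 and 59.

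The letters in the 63 distal sites were counted against all distal shared peaks. The RUNX letters were in 20 of the 63 (31.7%), against 21.0% of all. The TCF/LEF letters were in 14 (22.2%), against 13.2%, and 5 of the 14 were at Lmo2. The GATA letters were in 10 (15.9%), against 6.15%, and 7 of those 10 were at Cd44. The PU.1-type letters were in 11 (17.5%), against 17.9%, and CCGGAA was in 6 (9.52%), against 4.34%. CAGCTG was in 7 (11.1%), against 15.9%, CACCTG in 13 (20.6%), against 21.9%, and CAGATG in 11 (17.5%), against 16.3%. AP-1 letters were in 4 (6.35%), against 5.49%. Of 109 matches, 2 overlapped another, and 17 of the 63 peaks had no match. Counts this small, with many peaks from 1 gene, show no motif as particular to the 10 genes.

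Other genes of the same pathways gave a frame for these values. Of 10 other progenitor factors, 9 had a promoter peak in both replicates, with a median of 6.0 distal shared peaks and best promoter scores of 102 and 113. Zfpm1, which encodes the GATA cofactor FOG1, and Erg, an ETS factor gene, had 20 distal shared peaks each, and Irf8, which encodes a myeloid and dendritic factor, had 16. Hoxa9 had no peak at all by the same rules. Among 8 partners and ligands, 7 had a promoter peak in both, with a median of 7.0 distal shared peaks. The E protein gene Tcf12 had 28, Tcf4 had 13 and Lmo4 had 10. The ligand genes Kitl and Flt3l had no distal shared peak, and Has2, which encodes a hyaluronan synthase, had no promoter peak.

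T lineage factors had more distal sites and higher-scoring promoter peaks than the early progenitor genes. Of the 10 early progenitor genes, all but Cd44 (9 genes) had fewer distal shared peaks than any T lineage factor, whose lowest count was 14 (Notch1). The sum was 63 for the early progenitor genes and 296 for the 10 T lineage factors, with medians of 5.0 and 32.5. The territories had medians of 96.0 kb and 152 kb, and per 100 kb the medians were 6.58 for the early progenitor genes and 17.9 for the T lineage factors. By this density Lyl1, at 48.8, was above all T lineage factors but Tcf7, at 55.8, and Cd44, at 10.9, was above Satb1, at 9.89. Best promoter scores had medians of 55.5 and 52.5 for the early progenitor genes in replicates 1 and 2, against 114 and 120 for T lineage factors. The T lineage medians were close to the 114 and 121 of all coding genes with a promoter peak in both replicates. Runx1 had 45 distal shared peaks, Lef1 42 and Tcf7 36. These lists were chosen with earlier results of these data known, so the contrast describes the lists and tests nothing.

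**Figure D4:**
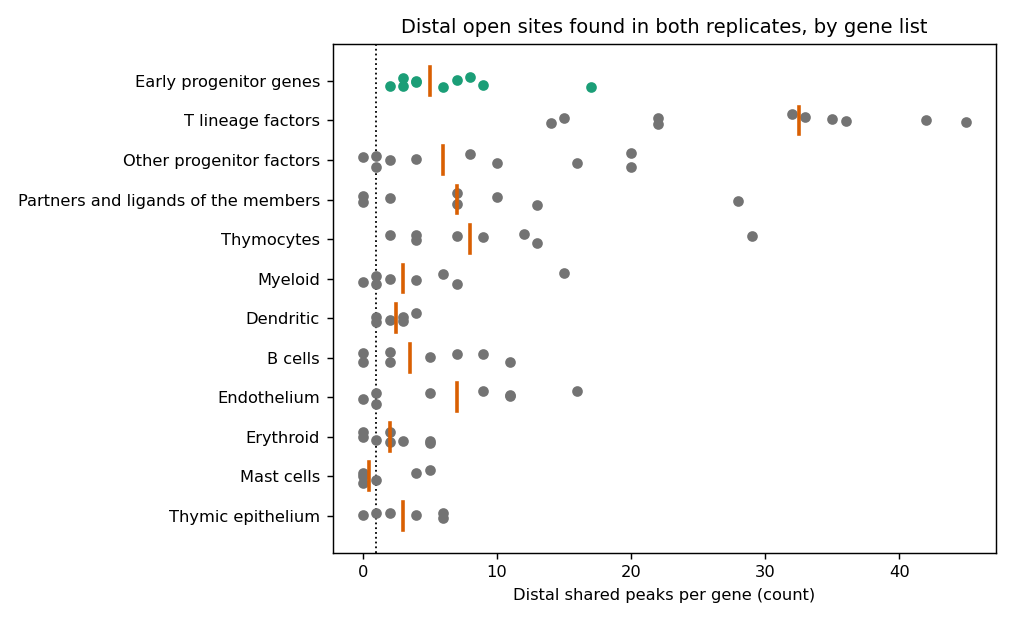
Distal shared peaks per gene (count) for the 10 early progenitor genes and 11 other gene lists. Each point is a gene, the orange bar is the list's median, and the dotted line is the median of 1.0 over all coding genes. The early progenitor genes span 2 to 17, while the T lineage factors span 14 to 45.

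Marker genes of the thymus and of other cells were read by the same rules. Both replicates had a promoter peak at all 8 thymocyte markers, with 2 to 29 distal shared peaks, so the defining markers of the labelled tissue were open. Of the thymic epithelium markers, 2 of 6 had one, and Foxn1 and Psmb11, which define that epithelium, had none. Promoter peaks in both replicates were found at 4 of 8 myeloid markers, 2 of 6 dendritic and 5 of 8 B cell. They were found at 3 of 8 endothelial, 5 of 8 erythroid and 0 of 6 mast cell markers. The share over all protein-coding genes was 62.2%. The B cell and erythroid lists, at 62.5%, were near it, and the other non-thymocyte lists were below it. Distal shared peaks summed to 36 over the myeloid list, 14 dendritic, 36 B cell, 54 endothelial, 18 erythroid, 10 mast cell and 19 thymic epithelium. In that order the means per gene were 4.5, 2.33, 4.5, 6.75, 2.25, 1.67 and 3.17, against 3.15 over all genes. Several promoter peaks of these lists scored above the medians of 55.5 and 52.5 of the early progenitor genes. The best scores in replicates 1 and 2 were 113 and 110 at Pecam1 and 80 and 73 at Egfl7 of the endothelial list. They were 119 and 109 at Ebf1 and 117 and 113 at Pax5 of the B cell list, 72 and 60 at the myeloid gene Itgam, and 62 and 62 at the dendritic gene Zbtb46. No promoter peak in both replicates was found at Csf1r and Adgre1 of the myeloid list, Itgax and Clec9a of the dendritic list, or Cdh5 and Tie1 of the endothelial list. Cdh5 had 16 distal shared peaks and Fcgr1 had 15. How much of the signal at Spi1, Mef2c, Flt3, Kit, Lyl1 or Tal1 comes from such cells was not tested.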

How the data were processed

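DNase-seq peaks and hotspots of 2 biological replicates of newborn thymus were used as the authors deposited them, called on mm10 for each replicate alone per the text deposited with them. The deposited peak score is a whole number from 1 to 150 with no stated meaning. The deposited hotspot value is the −log10 of a q-value, never under 1.30 and capped at 100. The sources used here do not name the aligner, caller, thresholds or depth, so no interval for depth could be given.

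Peak lines that repeated the position and score of another line were dropped (21 in replicate 1, 39 in replicate 2). Peaks written with a decimal point (6.77% and 10.1%) were kept. Start sites came from GENCODE M21 (GRCm38), and all peaks on the main chromosomes lay within that build's lengths. Positions count from 1. The distal peak count is that of replicate 1 peaks that overlap a replicate 2 peak. Percentile ranks are within a list. Motifs were searched on both strands over the 150 bp of the peak.

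The members, lists, motifs and naming rule (all members, the 3 genes of each list with the most distal shared peaks, and genes that go against their list) were chosen with earlier results of these data known. The strongest and farthest sites of each member, and the strongest of 1 replicate alone, were named by score rank. Peaks assigned to neighbours, and genes of the cell type lists, were named after their values were seen. Assignment, sharing and the motif search were tested on simulated data in 12 checks and recovered 100% of the planted answers. The tools were matplotlib 3.10.9, scipy 1.17.1, pandas 2.3.3 and numpy 2.4.6 under Python 3.11.15. Alternatives covered the overlap, score, window, distance limit, annotation, hotspots and each replicate alone.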

Additional observations from a re-analysis of the deposited data

How the results depend on the processing

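All 10 genes kept a promoter peak in both replicates with a reciprocal overlap of 50%, a window of 2500 bp, a limit of 50 kb, start sites of all biotypes, hotspots for presence and without peaks written with a decimal point. With the stronger 50% of peaks 7 of 10 did (Lmo2, Tal1 and Flt3 were lost), and with basic transcripts alone 9 did (Spi1 was lost). All 10 kept a distal shared peak under these settings except that Hhex had 0 with start sites of all biotypes. The sum of 63 distal shared peaks became 33 with the stronger 50% of peaks and 37 with start sites of all biotypes. That last setting adds the starts of non-coding genes and of non-coding transcripts of coding genes. A distal peak can then pass to another gene or become a promoter peak, and these outcomes were not counted apart. Each replicate alone gave 87 to 88 distal peaks, and all 10 genes with a promoter peak. The mean share of peaks found in both replicates, 72.2%, became 65.2% with the reciprocal overlap, 81.8% with the stronger 50%, 78.8% with hotspots for presence and 76.1% without peaks written with a decimal point. The median best promoter score, 54.0 over both replicates, became 59.0 with the stronger 50%, 63.0 with the 2500 bp window and 50.5 with basic transcripts, while that of all coding genes, 118, stayed between 116 and 120. Against flanking windows 1000 bp away, the ratio of motif shares became 5.10 for ETS (2.20 against all distal shared peaks), 3.40 for RUNX (1.51), 2.97 for CAGCTG (0.698), 1.84 for CACCTG (0.944) and 2.64 for TCF/LEF (1.68). Over all coding genes, distal shared peaks also held each of these motifs more often than their flanks did. The shares were 4.34% against 1.53% for ETS and 21.0% against 11.8% for RUNX. A higher share than in flanks was therefore not particular to the 10 genes. The ETS ratio of 5.10 rests on 6 of 63 peaks and 2 of 107 flanking windows. The ratios of the other motifs against flanks ran from 0.849 to 1.89. The cause of the other shifts was not tested. No paired analysis was possible because the series has 1 group. The basic-transcript and decimal settings, and the promoter score as a result, were added after seeing the data. Depth is unknown, so a missing peak means only that none was listed.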

Other observations

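RefSeq promoter windows (250 bases before to 50 after a start, GRCm38) were at hand for 8 of the 10 genes and not for Spi1 and Lmo2. The windows of Kit, Lyl1, Bcl11a and Hhex overlapped a peak in both replicates, with best scores in replicates 1 and 2 of 128 and 117 at Kit, 79 and 77 at Lyl1, 48 and 57 at Bcl11a, and 48 and 54 at Hhex. The Cd44 window overlapped a peak in replicate 1 alone, with a score of 54. The windows of Tal1, Mef2c and Flt3 overlapped none, and the promoter peaks counted for these genes lay outside the windows.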
